A study of Homo sapiens with 6 samples.

Results

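The genes described here are 59 broadly expressed protein-coding genes of the short arm of chromosome 2 (2p), followed through RNA-seq of K562 cells. They were taken from a written list of gene symbols, and all 59 were found among the 52088 genes of the count table and passed the filter on low counts that left 20746 genes. The list was drawn up because the arm was lower in the PAX6_Ta knockout and not in the PBX3_Cl knockout, so the members' fold changes between groups are given as a description and support nothing. The annotation places every member on 2p of GRCh37, SH3YL1 nearest to the telomere (217730 to 266398) and MDH1 nearest to the centromere with a start at 63.8 Mb. They make up 59 of the 355 tested protein-coding genes of 2p, and the other 296 are called unlisted below.

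K562 is an erythroleukaemia line with an aneuploid genome. The study deleted ultraconserved elements (UCEs), stretches of non-coding DNA, from it with Cas9 and paired guide RNAs. PAX6_Ta KO cells lacked the element PAX6_Tarzan on chromosome 11, PBX3_Cl KO cells lacked the element PBX3_Claudia on chromosome 9, and Control cells were labelled WT. Each group had 2 libraries. The knockout cells were transfected with a Cas9 plasmid, selected with puromycin and picked as single clones, while the labels name no such treatment for the Control. The deletion and whatever else sets a clone apart therefore cannot be told apart, and the labels do not say whether both libraries of a knockout were separate cultures, so the spread between them may be technical.

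The short arm of chromosome 2 carries no single pathway. Its broadly expressed genes serve processes that every growing cell uses: making deoxynucleotides and polyamines, repairing mismatched DNA, cutting and splicing transcripts, exporting proteins from the nucleus, burning fatty acids in mitochondria and removing phosphates from proteins. Many of them encode fixed subunits of complexes, such as both subunits of the mitochondrial trifunctional protein. CALM2 encodes a calmodulin and YWHAQ a 14-3-3 protein, and both kinds are made from several near-equivalent genes on different chromosomes.

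The guides that made the 2 knockouts are shown because they set the cut sites against which 2p was searched. The capitals mark the NGG motif (PAM) that Cas9 needs beside the 20-base target, and the sites are on GRCh37. The PAX6_Ta pair lies at chr11:31809917-31809939 (minus strand, U6 promoter) and chr11:31811316-31811338 (plus strand, H1 promoter), and the PBX3_Cl pair at chr9:128456987-128457009 (plus strand, U6) and chr9:128457970-128457992 (minus strand, H1).
PAX6_Ta, U6 guide: gctttctgtgcggttgtggaTGG
PAX6_Ta, H1 guide: caagtccattccttccccagTGG
PBX3_Cl, U6 guide: ctcagtactgcaaagactgtGGG
PBX3_Cl, H1 guide: gcttgtacagttaagcatgaTGG
Each guide had 1 exact site in the genome, and no guide had a site on 2p with 2 or fewer mismatches. With 3 mismatches the PAX6_Ta H1 guide had 20 sites, of which 1 was on 2p, at chr2:74733297-74733319 within PCGF1. No member lies there. In PAX6_Ta KO the 63 tested protein-coding genes between 70 and 80 Mb had a median log2 fold change over Control of -0.55, with 58 below 0. Other stretches of 2p of the same length had medians from -0.57 (40 to 50 Mb) to -0.36 (80 to 90 Mb). The stretch with the site therefore did not stand apart from the rest of the arm. The PAX6_Ta U6 guide had 12 sites with 3 mismatches and none of them on 2p. On the long arm, 2q, the PAX6_Ta guides had 1 (U6) and 2 (H1) sites with 3 mismatches. The PBX3_Cl guides had 22 (U6) and 5 (H1) such sites in the genome, with 0 on 2p and 0 on 2q. With 4 mismatches 2p held 7 of the 321 genome sites of the PAX6_Ta U6 guide and 4 of the 190 of the H1 guide. For PBX3_Cl it held 5 of 143 (U6) and 2 of 75 (H1). A match is a description of letters, and cutting there was not tested.

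The libraries held 45912044 to 60908470 counts each. Replicates correlated at 0.981 to 0.990 over log2 CPM (counts scaled to a common library size) of the tested genes, and the PBX3_Cl KO pair agreed least well. The median gap between PBX3_Cl KO replicates 1 and 2 was 0.31 on the log2 scale over the members, against -0.01 over all tested genes, so replicate 1 of that knockout carried more of the members' RNA. The corresponding gap over the members was 0.12 in PAX6_Ta KO and 0.08 in Control. All 10 K562 markers were above 1 CPM in every group, with summed levels of 9004 to 10573 CPM in PAX6_Ta KO, 7141 to 8618 CPM in PBX3_Cl KO and 5681 to 6595 CPM in Control. Of 4 pluripotent stem cell markers, whose summed level was 102 to 106 CPM in PAX6_Ta KO, 1.11 to 1.68 CPM in PBX3_Cl KO and 4.47 to 6.06 CPM in Control, LIN28A gave 5087 and 5368 counts in PAX6_Ta KO, 13 and 16 in PBX3_Cl KO and 281 and 177 in Control, while NANOG and SOX2 had at most 1 count in any library. The 6 fibroblast markers summed to 23.03 to 23.12 CPM in PAX6_Ta KO, 3.22 to 3.23 CPM in PBX3_Cl KO and 49.0 to 133 CPM in Control, nearly all of it in Control from COL1A2 at 48.6 and 133 CPM, with LUM at 0 in every library. The 4 epithelial markers summed to 2.13 to 3.70 CPM in PAX6_Ta KO, 21.9 to 26.8 CPM in PBX3_Cl KO and 42.3 to 45.6 CPM in Control, nearly all from EPCAM, itself on 2p, with KRT5 and KRT14 at 0 in every library. The 5 lymphoid markers summed to 5.04 to 10.6 CPM over the 6 libraries, with MS4A1 at 0. The part of any marker list in the members' levels was not tested.

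Summed, the 59 genes were lower in PAX6_Ta KO than in Control, and near the Control level in PBX3_Cl KO. They took 0.672% and 0.698% of all counts in the PAX6_Ta KO libraries, 0.953% and 0.862% in the PBX3_Cl KO libraries and 0.970% and 0.999% in the Control libraries. Their summed level was 6686 ± 401 CPM in PAX6_Ta KO, 9517 ± 1251 CPM in PBX3_Cl KO and 9656 ± 254 CPM in Control (SD, n = 2 each). Both PAX6_Ta KO libraries lay below all 4 other libraries. In bulk RNA, fewer cells with a transcript and less of it per cell cannot be told apart.

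The fitted log2 fold changes of PAX6_Ta KO over Control had a median of -0.55 over the members, a ratio of 0.682, while the median of all 20746 tested genes was -0.02. The middle part of the members, between the quartiles, ran from -0.63 to -0.43, and 54 of 59 were below 0. The spread among them (SD 0.29) was larger than the standard error of a single member, whose median was 0.21, and the extremes were HADHB at -0.86 and HPCAL1 at 0.59. For 51 of 59 members both PAX6_Ta KO libraries lay under both Control libraries, beside 28% of all tested genes. By edgeR's quasi-likelihood test at an adjusted p below 0.05, 2 members were called lower, HADHB and STRN, and none higher, beside backgrounds of 4.21% of all genes called lower and 7.21% called higher. At an unadjusted p below 0.05 there were 39 lower and 1 higher, beside 10.1% of all genes lower and 12.6% higher. DESeq2 called 2 lower, HADHB and BIRC6 but not STRN, and none higher, beside 3.57% and 6.26% of the genes to which it gave an adjusted p. With the replicate number as a block 31 were called lower and 1 higher, HPCAL1, where 7.33% of all genes were called lower and 9.78% higher. The list was chosen on this contrast, so nothing is read from these counts.

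The count of calls rested on single libraries far more than the size of the shift did. It was 25 without PBX3_Cl KO replicate 1 and 26 without PBX3_Cl KO replicate 2, where 6.25% and 6.5% of all genes were called lower. It was 0 without either PAX6_Ta KO library in turn (2.04% and 1.95% of all genes) and 1 without either Control library in turn (2.61% and 3% of all genes). Over the same fits the members' median stayed between -0.57 and -0.48.

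Of the 4 members in nucleotide and polyamine synthesis and methionine salvage, 3 were below 0 in PAX6_Ta KO, and their median was -0.59. ODC1, the decarboxylase that starts polyamine synthesis, had 477 and 406 CPM in PAX6_Ta KO, 735 and 583 CPM in PBX3_Cl KO and 713 and 695 CPM in Control. Both PAX6_Ta KO libraries were below all others, and the log2 fold change was -0.67 ± 0.22 (± is the standard error of the fit from here on). CAD, the enzyme that carries the first steps of pyrimidine synthesis, had 202 and 269.7 CPM in PAX6_Ta KO, 178 and 397 CPM in PBX3_Cl KO and 277 and 474 CPM in Control. CAD was higher in replicate 2 of every group, its PAX6_Ta KO libraries lay under both Control libraries, and its log2 fold change of -0.67 carried an error of 0.35. RRM2, the small subunit of ribonucleotide reductase, was at -0.50 ± 0.22 in PAX6_Ta KO and 0.28 ± 0.22 in PBX3_Cl KO.

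All 4 members that act in DNA repair and chromosome maintenance were below 0 in PAX6_Ta KO, with a median of -0.57. MSH6, which finds mismatched bases in DNA, had 209 and 189 CPM in PAX6_Ta KO, 314 and 286 CPM in PBX3_Cl KO and 320.1 and 266 CPM in Control. The groups did not overlap between PAX6_Ta KO and Control, and the log2 fold change was -0.56 ± 0.20. SMC6, a core subunit of a cohesin-like complex that guards broken and stalled DNA, had 124 and 112 CPM in PAX6_Ta KO, 189 and 136 CPM in PBX3_Cl KO and 176 and 159.6 CPM in Control. Its PAX6_Ta KO libraries were again the lowest, at -0.51 ± 0.21. GEN1, a nuclease that cuts Holliday junctions, stood at -0.64 and RNASEH1, which removes RNA from RNA-DNA hybrids, at -0.58.

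In transcription and chromatin 5 of 6 members were below 0 in PAX6_Ta KO, with a median of -0.52. ASXL2, a partner of the BAP1 deubiquitinase on chromatin, had 94.5 and 102 CPM in PAX6_Ta KO, 140.2 and 152 CPM in PBX3_Cl KO and 149.7 and 144 CPM in Control. GTF3C2, a subunit of the factor that recruits RNA polymerase III, had 75.9 and 63.6 CPM in PAX6_Ta KO, 108 and 97.3 CPM in PBX3_Cl KO and 110.2 and 103 CPM in Control. For both genes the PBX3_Cl KO libraries were within or near the Control range and the PAX6_Ta KO libraries below it, at -0.58 ± 0.19 for ASXL2 and -0.61 ± 0.19 for GTF3C2. TAF1B of the RNA polymerase I machinery was at -0.53, the repressor E2F6 at -0.51 and SUPT7L, a subunit of the SAGA histone acetyltransferase complex, at -0.44.

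RNA processing and ribosome assembly held 7 members, all below 0 in PAX6_Ta KO, with a median of -0.55. DDX1, an RNA helicase, had 192 and 174 CPM in PAX6_Ta KO, 290.0 and 184 CPM in PBX3_Cl KO and 271 and 265 CPM in Control. Replicate 2 of PBX3_Cl KO sat at the PAX6_Ta KO level for DDX1, and the log2 fold change of PAX6_Ta KO was -0.55 ± 0.23. WDR43, needed for early steps of small ribosomal subunit assembly, had 138 and 134 CPM in PAX6_Ta KO, 214 and 169.6 CPM in PBX3_Cl KO and 219 and 203 CPM in Control. CEBPZ, a nucleolar ribosome assembly factor despite its name, had 74.6 and 68.6 CPM in PAX6_Ta KO, 145 and 98.9 CPM in PBX3_Cl KO and 119 and 116 CPM in Control. Neither overlapped between PAX6_Ta KO and Control, with log2 fold changes of -0.63 ± 0.20 for WDR43 and -0.71 ± 0.21 for CEBPZ. NOL10 of the nucleolus was at -0.66, the translational repressor PUM2 at -0.47, the splicing factor subunit SF3B6 at -0.35 and CPSF3, the nuclease that cuts pre-mRNA before polyadenylation, at -0.21.

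Members of translation, protein folding and turnover had a median of -0.61 in PAX6_Ta KO, with 6 of 7 below 0. BIRC6, a giant ubiquitin-conjugating inhibitor of cell death, had 268 and 289 CPM in PAX6_Ta KO, 358 and 345 CPM in PBX3_Cl KO and 407 and 469 CPM in Control. PSME4, the proteasome activator PA200, had 159.7 and 183 CPM in PAX6_Ta KO, 274 and 261 CPM in PBX3_Cl KO and 233 and 289 CPM in Control. PAX6_Ta KO was the lowest group for both, at -0.65 ± 0.20 for BIRC6 and -0.61 ± 0.20 for PSME4, and BIRC6 was also under the Control range in PBX3_Cl KO. UBXN2A, an adaptor of the p97 segregase, was at -0.67, the deubiquitinase USP34 at -0.62, the disulphide isomerase PDIA6 at -0.55 and EIF2B4, a subunit of the exchange factor that recharges eIF2, at -0.52.

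All 6 mitochondrial and energy metabolism members were below 0 in PAX6_Ta KO, with a median of -0.53. LRPPRC, which stabilizes mitochondrial messenger RNAs, had 459 and 446 CPM in PAX6_Ta KO, 649.6 and 475 CPM in PBX3_Cl KO and 619.9 and 685 CPM in Control, and the log2 fold change of PAX6_Ta KO was -0.53 ± 0.22. HADHA and HADHB encode the alpha and beta subunits of the trifunctional protein, which carries out the last steps of long-chain fatty acid oxidation. HADHA had 394 and 272 CPM in PAX6_Ta KO, 643 and 484 CPM in PBX3_Cl KO and 552 and 414 CPM in Control. HADHB had 48.0 and 42.8 CPM in PAX6_Ta KO, 95.9 and 65.4 CPM in PBX3_Cl KO and 91.0 and 74.3 CPM in Control. Both subunits were lowest in PAX6_Ta KO, at -0.54 ± 0.26 for HADHA and -0.86 ± 0.22 for HADHB, and replicate 2 was below replicate 1 in every group. MRPL33, a protein of the large mitochondrial ribosomal subunit, had 6.55 and 6.95 CPM in PAX6_Ta KO, 11.7 and 7.03 CPM in PBX3_Cl KO and 10.1 and 12.2 CPM in Control. Its log2 fold change was -0.73 ± 0.28, and 1 PBX3_Cl KO library sat near the PAX6_Ta KO level. MPV17, a protein of the inner membrane whose loss depletes mitochondrial DNA, was at -0.49 and MDH1, the cytosolic malate dehydrogenase of the malate-aspartate shuttle, at -0.36.

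Phosphatases and signalling adaptors formed the largest group of members, with 10 of 11 below 0 in PAX6_Ta KO and a median of -0.58. YWHAQ, the theta member of the 14-3-3 proteins that bind phosphorylated partners, had 255 and 254 CPM in PAX6_Ta KO, 326 and 273 CPM in PBX3_Cl KO and 353 and 333 CPM in Control. PPM1G, a metal-dependent phosphatase of the nucleus, had 203 and 159.6 CPM in PAX6_Ta KO, 329.7 and 264 CPM in PBX3_Cl KO and 276 and 249 CPM in Control. STRN, striatin, a scaffold that joins phosphatase 2A to kinases, had 81.3 and 68.0 CPM in PAX6_Ta KO, 118 and 91.5 CPM in PBX3_Cl KO and 129 and 113 CPM in Control. PAX6_Ta KO was lowest without overlap for these 3 genes, at -0.43 ± 0.20 for YWHAQ, -0.54 ± 0.21 for PPM1G and -0.70 ± 0.21 for STRN. PPP1CB, a catalytic subunit of phosphatase 1, was at -0.67, the calmodulin gene CALM2 at -0.62, the kinase ROCK2 at -0.59, MEMO1 at -0.59, the phosphatase PPM1B at -0.58, the pseudokinase NRBP1 at -0.32 and the low molecular weight phosphatase ACP1 at -0.31.

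Membrane traffic, transport and cell surface members had the least negative median of the 9 role groups, -0.46, with 9 of 10 below 0. XPO1, the exportin that carries proteins with a leucine-rich export signal out of the nucleus, had 266 and 327 CPM in PAX6_Ta KO, 405 and 364 CPM in PBX3_Cl KO and 441 and 480.5 CPM in Control. RAB10, a GTPase of vesicle delivery to the cell surface, had 321 and 245 CPM in PAX6_Ta KO, 450.3 and 341 CPM in PBX3_Cl KO and 412 and 349.6 CPM in Control. SH3YL1, a phosphoinositide-binding protein, had 2.56 and 2.75 CPM in PAX6_Ta KO, 3.33 and 4.67 CPM in PBX3_Cl KO and 3.83 and 5.13 CPM in Control. All 3 were lowest in PAX6_Ta KO, with log2 fold changes of -0.64 ± 0.21 for XPO1, -0.43 ± 0.23 for RAB10 and -0.75 ± 0.32 for SH3YL1. LAPTM4A of lysosomal membranes was at -0.67, the esterase-like IAH1 at -0.64 with an error of 0.46, ADAM17, the protease that sheds TNF, at -0.50, the endosomal sorting protein SNX17 at -0.38, NBAS, a tether of Golgi-to-ER vesicles, at -0.25 and TMEM18 of the nuclear envelope at -0.07.

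The 4 cytoskeleton and organelle shape members were all below 0, with a median of -0.61. SPTBN1, the beta spectrin of non-erythroid cells, had 505 and 409 CPM in PAX6_Ta KO, 867 and 748 CPM in PBX3_Cl KO and 800.4 and 614 CPM in Control. ATL2, a GTPase that fuses tubules of the endoplasmic reticulum, had 43.1 and 48.9 CPM in PAX6_Ta KO, 70.7 and 52.8 CPM in PBX3_Cl KO and 69.2 and 71.9 CPM in Control. PAX6_Ta KO was the lowest group for both, at -0.63 ± 0.23 for SPTBN1 and -0.62 ± 0.20 for ATL2. SPAST, which severs microtubules, was at -0.60 and CRIPT, a binding partner of the synaptic scaffold PSD-95, at -0.33.

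The 5 members that were not below 0 in PAX6_Ta KO were HPCAL1, YPEL5, ADI1, ITSN2 and NCOA1. HPCAL1, a calcium sensor of the visinin family, had 64.0 and 56.0 CPM in PAX6_Ta KO, 62.3 and 71.8 CPM in PBX3_Cl KO and 40.5 and 39.4 CPM in Control. YPEL5, a subunit of the CTLH ubiquitin ligase, had 20.6 and 14.7 CPM in PAX6_Ta KO, 22.9 and 17.8 CPM in PBX3_Cl KO and 14.4 and 10.2 CPM in Control. Both knockouts were above Control for these 2 genes, with log2 fold changes in PAX6_Ta KO of 0.59 ± 0.19 for HPCAL1 and 0.52 ± 0.26 for YPEL5 and in PBX3_Cl KO of 0.75 ± 0.19 for HPCAL1 and 0.73 ± 0.26 for YPEL5.

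ITSN2, an endocytic scaffold, had 36.9 and 35.5 CPM in PAX6_Ta KO, 59.2 and 54.8 CPM in PBX3_Cl KO and 36.6 and 27.1 CPM in Control. NCOA1, a coactivator of nuclear receptors, had 70.1 and 72.2 CPM in PAX6_Ta KO, 85.9 and 115 CPM in PBX3_Cl KO and 71.0 and 68.5 CPM in Control. For this pair PAX6_Ta KO sat at the Control level, at 0.18 ± 0.20 for ITSN2 and 0.03 ± 0.20 for NCOA1, and under PBX3_Cl KO. ADI1, a dioxygenase of methionine salvage, had 74.8 and 63.1 CPM in PAX6_Ta KO, 50.5 and 42.3 CPM in PBX3_Cl KO and 63.3 and 52.3 CPM in Control. ADI1 went the other way, with a log2 fold change of 0.25 ± 0.20 in PAX6_Ta KO and -0.32 ± 0.20 in PBX3_Cl KO, and its PAX6_Ta KO and Control ranges overlapped.

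In PBX3_Cl KO against Control the members' median log2 fold change was -0.04, with 35 of 59 below 0. None was called lower and 2 were called higher, HPCAL1 and ITSN2, both by edgeR and by DESeq2, beside backgrounds of 2.69% of genes called lower and 6.28% called higher. At an unadjusted p below 0.05 none was lower and 4 were higher, beside 7.07% and 12.6% of all genes, and the replicate block added YPEL5 to the calls, where 9.26% of all genes were called higher. For 11 members both PBX3_Cl KO libraries lay under both Control libraries, against 20.6% of all tested genes. Without PBX3_Cl KO replicate 1 the median was -0.20 with 1 member called lower, and without replicate 2 it was 0.08, so the place of this knockout relative to Control on 2p rests on which of its libraries is read.

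Set directly against PBX3_Cl KO, the members in PAX6_Ta KO had a median log2 fold change of -0.49, and 57 of 59 were below 0, the exceptions being ADI1 at 0.57 and TMEM18 at 0.15. Called lower were 9 members, SPTBN1, HADHB, LAPTM4A, RRM2, CEBPZ, SPAST, PPM1G, ADAM17 and SUPT7L, with 6.71% of all genes called lower as background, and none was called higher beside 5.26%. The replicate block gave 26 lower and 1 higher, ADI1, where 10.6% of all genes were called lower and 8.06% higher. Leaving out a library moved the count called lower to 0 without either PAX6_Ta KO library in turn (3.49% and 2.77% of all genes), 2 without PBX3_Cl KO replicate 1 (6.22%) and 18 without its replicate 2 (6.98%). Leaving out PBX3_Cl KO replicate 1 moved the median to -0.31.

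Overlapping promoters joined 3 pairs of members, SH3YL1 with ACP1, SMC6 with GEN1 and HADHA with HADHB, whose genes lie on opposite strands. In the annotation on GRCh37 GEN1 (17935125 to 17970213) lies within the span of SMC6 (17845079 to 17981509). The windows compared run from 250 bases before to 50 bases after a start in RefSeq (GRCh38.p14), of which 84 belonged to 54 of the members. HADHA and HADHB shared 194 bases of these windows and had log2 fold changes in PAX6_Ta KO of -0.54 and -0.86. SH3YL1 and ACP1 shared 222 bases and were at -0.75 and -0.31. SMC6 and GEN1 shared 158 and 173 bases of 2 GEN1 windows and were at -0.51 and -0.64. The windows of HADHB (chr2:26244689-26244988, plus strand) and of GEN1 (chr2:17753619-17753918, plus strand) are shown because each overlaps its partner's window on the other strand. Capitals mark GGGCGG, the GC box, on either strand and CCGGAAGT, an ETS motif, on either strand.
HADHB promoter window: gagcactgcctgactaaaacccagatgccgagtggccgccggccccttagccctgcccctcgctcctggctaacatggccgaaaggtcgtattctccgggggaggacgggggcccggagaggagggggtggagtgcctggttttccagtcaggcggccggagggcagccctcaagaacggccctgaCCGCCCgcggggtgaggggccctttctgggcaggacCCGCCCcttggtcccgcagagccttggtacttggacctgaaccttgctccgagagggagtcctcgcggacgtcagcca
GEN1 promoter window: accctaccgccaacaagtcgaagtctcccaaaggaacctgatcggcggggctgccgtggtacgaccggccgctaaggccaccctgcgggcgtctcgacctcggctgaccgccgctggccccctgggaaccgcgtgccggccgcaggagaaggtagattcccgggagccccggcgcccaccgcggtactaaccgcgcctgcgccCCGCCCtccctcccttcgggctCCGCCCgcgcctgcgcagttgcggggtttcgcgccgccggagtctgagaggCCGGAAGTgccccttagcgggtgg
GGGCGG was found in 55 of the 84 member windows (65.5%), in 64.2% of the windows of tested protein-coding genes and in 45.0% of all 35116 windows. CCGGAAGT was found in 8 member windows (9.52%), in 6.99% of those of tested protein-coding genes and in 4.14% of all. The member windows had a median GC content of 69.7%, against 64.3% over tested protein-coding genes. These matches say nothing about binding.

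The members' fold changes showed little order along the arm. In PAX6_Ta KO against Control their median was -0.51 over the 20 nearest to the telomere, -0.52 over the next 19 and -0.62 over the 20 nearest to the centromere. Fold change correlated with rank from the telomere at a Pearson r of -0.23 and with the log2 mean level in Control at -0.19, over 59 genes that share the same 6 libraries. The 296 unlisted genes of the arm, which the wording of the rule also covers, had a median of -0.47, with 247 below 0. The median of the unlisted genes was -0.48 between the telomere and MDH1 and -0.45 between MDH1 and the centromere, where no member lies. Of the 296 unlisted genes, 57 were called lower and 14 higher in PAX6_Ta KO, beside 4.21% and 7.21% of all tested genes.

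The lower stretch ran across the centromere. On the long arm (2q), which the rule did not use, the 521 tested protein-coding genes had a median of -0.03 in PAX6_Ta KO against Control, but the values changed in steps along it. The 44 genes between 90 and 100 Mb had a median of -0.58, with 42 below 0, 9 called lower and 1 higher. The 29 genes between 100 and 110 Mb had a median of -0.63, with 27 below 0, 11 called lower and 1 higher. Of all tested genes 4.21% were called lower and 7.21% higher in this contrast. The next 28 genes, to 120 Mb, had a median of -0.01, with 14 below 0. Together the 73 genes up to 110 Mb had a median of -0.62 in PAX6_Ta KO, with 20 called lower, a count that was 12 without either Control library in turn, 9 without either PAX6_Ta KO library in turn, 32 without either PBX3_Cl KO library in turn and 33 with the replicate block, while the median stayed between -0.65 and -0.53. In PBX3_Cl KO these genes had a median of -0.12, with 3 called lower and 4 higher, beside 2.69% and 6.28% of all tested genes.

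Genes on either side of that step, named after their values were seen, show its size. RANBP2, a nucleoporin of the cytoplasmic filaments at 109335938 to 109402266, had 239 and 295 CPM in PAX6_Ta KO, 367 and 315 CPM in PBX3_Cl KO and 412 and 479 CPM in Control. CCDC138 beside it had 22.4 and 21.5 CPM in PAX6_Ta KO, 36.2 and 29.2 CPM in PBX3_Cl KO and 36.7 and 36.8 CPM in Control. PAX6_Ta KO was lowest for both, with log2 fold changes of -0.74 ± 0.21 (edgeR adjusted p = 0.0436) for RANBP2 and -0.74 ± 0.20 (edgeR adjusted p = 0.0277) for CCDC138. Neither call held when any of the Control or PAX6_Ta KO libraries was left out, with log2 fold changes of -0.89 to -0.60 for RANBP2 and -0.78 to -0.71 for CCDC138. BUB1, a spindle checkpoint kinase that starts at 111395105, had 178 and 176 CPM in PAX6_Ta KO, 194 and 149 CPM in PBX3_Cl KO and 187 and 176 CPM in Control, at -0.04 ± 0.20 with an edgeR adjusted p of 0.9501. ANAPC1, the largest subunit of the anaphase-promoting complex, was at -0.17 ± 0.19 with an edgeR adjusted p of 0.721.

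Farther along 2q the medians of the 10 Mb bins lay on either side of 0 in PAX6_Ta KO. The 24 genes between 120 and 130 Mb had a median of 0.22 and the 32 between 130 and 140 Mb a median of -0.17. The 7 genes between 140 and 150 Mb had a median of -0.82, with 7 below 0 and 2 called lower. The calls in these bins stand beside 4.21% of all tested genes called lower and 7.21% called higher. The 18 genes between 150 and 160 Mb had a median of -0.94, with 11 called lower and 1 higher. The bin from 160 to 170 Mb was mixed, with a median of 0.66 over 21 genes, 9 of them below 0, 3 called lower and 6 higher. Neighbouring bins thus did not share 1 level. The 59 genes between 170 and 180 Mb had a median of 0.45, with 19 called higher and none lower, and the 17 between 180 and 190 Mb a median of 0.96, with 10 called higher and none lower. Beyond 190 Mb the medians of the 10 Mb bins lay between -0.16 and 0.19. How many copies of any stretch the cells carry is not analysed here.

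**Figure D1:**
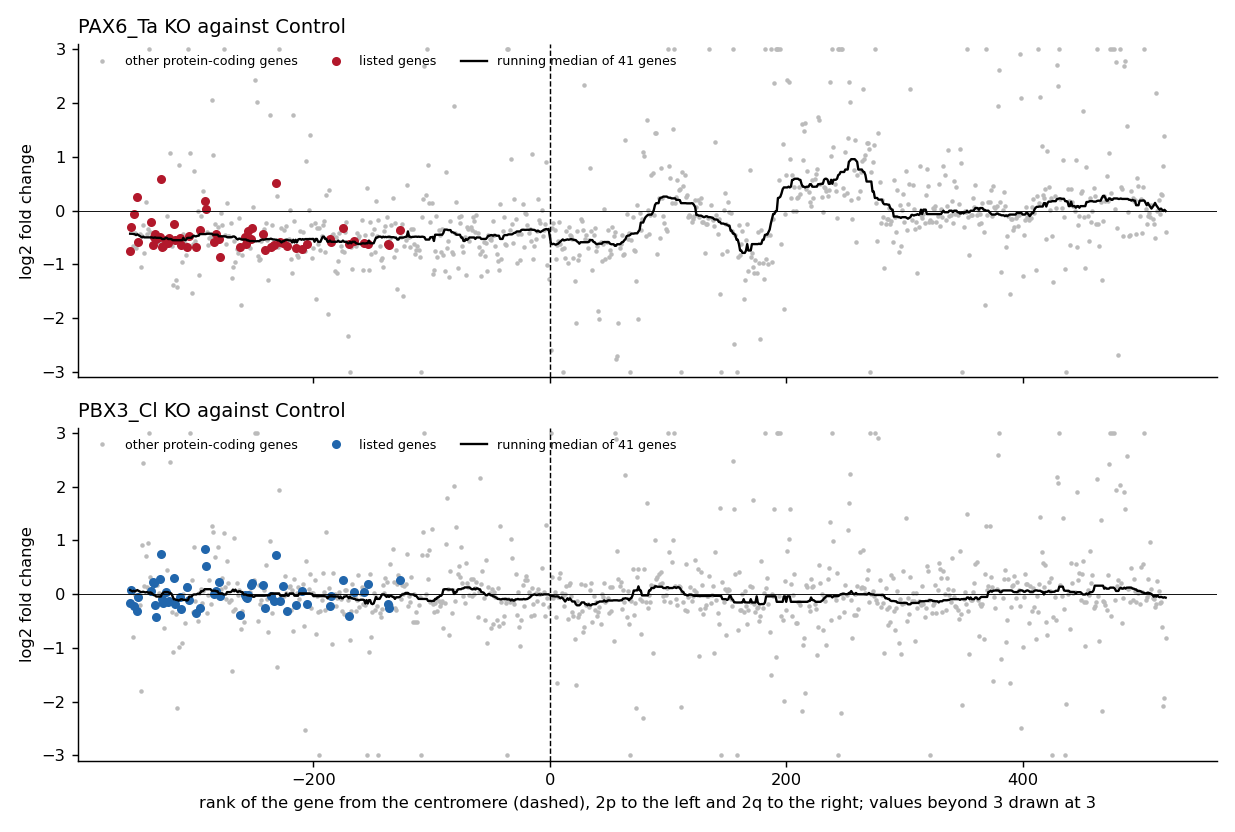
Log2 fold changes over Control of tested protein-coding genes of chromosome 2 in PAX6_Ta KO (top) and PBX3_Cl KO (bottom), by rank from the centromere, with the listed genes in colour and a running median over 41 genes. In PAX6_Ta KO the line stays near -0.5 over all of 2p and into 2q before it turns to other levels, and in PBX3_Cl KO it stays near 0.

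Among the 41 chromosome arms with at least 20 tested protein-coding genes, 2p had the lowest median in PAX6_Ta KO against Control, -0.49, followed closely by 4q at -0.49 and 8p at -0.48, then 5p at -0.32 and 1p at -0.31. The highest were 7p at 0.65 and 11p at 0.62. In PBX3_Cl KO 2p was at -0.02, 4q at -0.11 and 8p at 0.08, while 11p at 0.64 and 7p at 0.58 were again the highest. A low arm median in PAX6_Ta KO was thus not particular to 2p. The comparisons share the Control libraries, so the values are given side by side only.

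Paralogues and complex partners of the members that lie elsewhere in the genome stood near the median of all genes. Of 158 such genes written down for the members, 154 were in the table and 150 were tested and lay outside 2p. In PAX6_Ta KO against Control their median log2 fold change was -0.02, with 79 below 0. Of the 46 members with such a partner, 43 stood below the median of their partners. The members were listed for being lower in this contrast, so that count follows from the choice and supports nothing.

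Of the 150 partners 6 were called higher and 1 lower in PAX6_Ta KO, beside backgrounds of 7.21% and 4.21%. With the replicate block 15 and 10 were called, beside 9.78% and 7.33% of all genes. SMOX, a spermine oxidase of the polyamine pathway that ODC1 opens, had 15.5 and 13.04 CPM in PAX6_Ta KO, 7.55 and 9.25 CPM in PBX3_Cl KO and 3.45 and 3.94 CPM in Control. SMOX was above Control in both knockouts, with a log2 fold change in PAX6_Ta KO of 1.95 ± 0.26 (edgeR adjusted p = 0.000317). Among the partners 4 were called higher in PBX3_Cl KO, among them RAB13, SMOX and RHBDF2, and 1 lower, LAPTM5, beside 6.28% and 2.69% of all genes. With the block 11 were called higher in PBX3_Cl KO, where 9.26% of all genes were.

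The calls described next, also among partners in PAX6_Ta KO, were smaller than that of SMOX, and each was lost without some library. NCOA2, the paralogue of NCOA1, was higher at 1.01 ± 0.23 (edgeR adjusted p = 0.0118), and 0.88 without Control replicate 2 (edgeR adjusted p = 0.0780). ACADS, a short-chain fatty acid dehydrogenase, was higher at 0.96 ± 0.24 (edgeR adjusted p = 0.0191), with adjusted p of 0.117 without Control replicate 2 and 0.274 without PAX6_Ta KO replicate 1 by the same test. SFN, a 14-3-3 gene related to YWHAQ, was lower at -1.68 ± 0.35 (edgeR adjusted p = 0.00718), and -1.49 without PAX6_Ta KO replicate 2 (edgeR adjusted p = 0.0671). A further 2 calls came from arms that were high as a whole, APIP of methionine salvage on 11p at 0.83 ± 0.24 (edgeR adjusted p = 0.0463) and the mismatch repair gene PMS2 on 7p at 0.71 ± 0.21 (edgeR adjusted p = 0.0495). APIP lost its call without Control replicate 1 (0.73), without Control replicate 2 (0.93) and without PAX6_Ta KO replicate 1 (0.66), and PMS2 lost it without Control replicate 1 (0.85), Control replicate 2 (0.57), PAX6_Ta KO replicate 1 (0.58) and PAX6_Ta KO replicate 2 (0.83).

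PPP1CB and YWHAQ each belong to a family of several near-equivalent genes, so their share of the family's counts could be read within each library. PPP1CB gave 18.6% and 17.3% of the counts of the phosphatase 1 catalytic genes in PAX6_Ta KO, 27.6% and 26.3% in PBX3_Cl KO and 28.7% and 26.5% in Control. YWHAQ gave 12.5% and 14.04% of 14-3-3 counts in PAX6_Ta KO, 13.5% and 13.6% in PBX3_Cl KO and 16.0% and 17.0% in Control. For PPP1CB the PAX6_Ta KO libraries stood apart from the other 4, while for YWHAQ both knockouts were below Control and overlapped each other. Both genes were listed because their arm was lower in PAX6_Ta KO, so a lower share there follows from the choice and supports nothing.

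The totals of both families differed between groups by no more than the larger SD of the groups. Phosphatase 1 catalytic genes summed to 407 ± 27.1 CPM in PAX6_Ta KO, 422 ± 97.1 CPM in PBX3_Cl KO and 422 ± 15.3 CPM in Control (SD, n = 2 each). The 14-3-3 genes summed to 1921 ± 160.0 CPM in PAX6_Ta KO, 2212 ± 296 CPM in PBX3_Cl KO and 2080 ± 170 CPM in Control (SD, n = 2 each). No test was made of these sums. Against Control in PAX6_Ta KO, CALM3 was at 0.17 ± 0.22, PPP1CA at 0.07 ± 0.19 and PPP1CC at 0.18 ± 0.23. In PBX3_Cl KO, CALM3 was at 0.19, PPP1CA at -0.05 and PPP1CC at 0.07. Of the 14-3-3 genes YWHAZ was at 0.55, YWHAH at 0.26 and YWHAB at 0.07 in PAX6_Ta KO, while YWHAE was at -0.76 and YWHAG at -0.55, and none of these 8 genes was called by edgeR in PAX6_Ta KO, with adjusted p from 0.0754 to 0.909.

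Some unlisted 2p genes moved much farther than the members did. The 5 with the largest fold changes among those called in PAX6_Ta KO against Control were EHD3, LRRTM4, SDC1, PLEK and EPCAM. EHD3, an endocytic recycling protein, had 269 and 186 counts in PAX6_Ta KO, 5 and 8 in PBX3_Cl KO and 4 and 0 in Control. LRRTM4, a synaptic adhesion protein, had 101 and 81 counts in PAX6_Ta KO, 0 and 0 in PBX3_Cl KO and 1 and 1 in Control, and SDC1, a cell surface proteoglycan, had 328 and 202 counts in PAX6_Ta KO, 12 and 6 in PBX3_Cl KO and 16 and 5 in Control. Both PAX6_Ta KO libraries stood above all 4 other libraries for these 3 genes.

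EPCAM, an adhesion molecule of epithelial and stem cells, had 3.66 and 2.13 CPM in PAX6_Ta KO, 26.8 and 21.9 CPM in PBX3_Cl KO and 42.3 and 45.5 CPM in Control, a log2 fold change of -3.92 ± 0.28 in PAX6_Ta KO. PLEK, pleckstrin, a protein kinase C substrate of blood cells, had 15 and 17 counts in PAX6_Ta KO, 13 and 7 in PBX3_Cl KO and 785 and 87 in Control. PLEK was low in both knockouts, and its Control libraries differed so much that the log2 fold change of -4.53 ± 0.79 in PAX6_Ta KO was -2.43 without Control replicate 1 and -5.36 without Control replicate 2. EPCAM is on the epithelial marker list, on which KRT5 and KRT14 had no count in any library.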

How the data were processed

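The authors deposited raw read counts per gene, made after trimming with Cutadapt 3.4 by aligning and counting with STAR on GRCh37 (release 75). The kit was stranded, but no source here states how strand was set when reads were counted. Of the table's columns, 4 match no label given here and were not used. The deposited comparison tables, 4 in number, hold the authors' own fold changes and p-values and were not used.

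Genes with low counts were removed by filterByExpr and all 6 libraries were fitted together in edgeR 4.0.16 (R 4.3.3) with TMM factors and the quasi-likelihood test, Benjamini-Hochberg adjusted over 20746 genes and called below 0.05. Standard errors are the absolute log2 fold change over the square root of F. CPM use the TMM factors. DESeq2 1.42.0, other scalings and filters, a replicate block, fits of 2 groups and fits without each library were alternatives. The script was tested on simulated data. Replicate numbers are shared across groups, and same-numbered libraries deviated together. The correlations of the replicate differences were 0.389 for PAX6_Ta KO with Control, 0.210 for PBX3_Cl KO with Control and 0.379 between the knockouts. This pairing is a hint from the data that the labels do not state. The main fit did not use it, and only the replicate block took the numbers as pairs. Positions come from GENCODE 44 lifted to GRCh37. Intervals of shares are exact binomial and cover counting error only, since reads are not independent molecules.

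The members, role groups and partner list were chosen with earlier results of these data known. Values per library are given for the 2 members of each role group with the highest Control mean and for the 5 lowest and 5 highest fold changes in PAX6_Ta KO against Control; partners are named if called in that contrast or of the calmodulin, 14-3-3 or phosphatase 1 families, and unlisted 2p genes if among the 5 largest changes called. Some genes that meet this rule, and 1 of 3 family shares, are not reported here.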

Additional observations from a re-analysis of the deposited data

How the results depend on the processing

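Under all 14 alternatives the members' median log2 fold change in PAX6_Ta KO against Control stayed between -0.57 and -0.48, and that of the unlisted 2p genes between -0.50 and -0.42. The number of members called lower in that contrast moved with nearly every choice. It was 13 with upper-quartile factors, against 2, where 4.18% of all genes were called lower. It was 12 with library sizes alone (4.15%), 1 with TMM factors computed without chromosome 2 (4.14%) and 4 with no filter (3.03%). With only the 2 groups compared it was 25 (6.52%), and with the replicate block 31 (7.33%). It also moved when a library was left out. In PBX3_Cl KO against Control the members' median ran from -0.20 to 0.077 and the count called lower from 0 to 1 over left-out libraries. In PAX6_Ta KO against PBX3_Cl KO the median ran from -0.59 to -0.31 over left-out libraries, and the count called lower, 9, was 5 with TMM factors without chromosome 2, 4 with a stricter filter, 2 with only these groups, 26 with the replicate block and 0 to 18 over left-out libraries.

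Partners called higher in PAX6_Ta KO against Control, 6, were 10 with no filter, 15 with the block and 2 to 10 over left-out libraries; those called lower, 1, were 3 with upper-quartile factors, 4 with library sizes alone, 4 with no filter, 5 with only the 2 groups, 10 with the block and 0 to 7 over left-out libraries. In PBX3_Cl KO against Control 11 were called higher with the block, and left-out libraries gave 4 to 9 higher and 1 to 3 lower. In PAX6_Ta KO against PBX3_Cl KO 5 were called higher and 10 lower; library sizes alone gave 8 higher, the stricter filter 6 lower, only these groups 5 lower, the block 10 higher and 16 lower, and left-out libraries 1 to 11 higher and 1 to 12 lower. The median of 2q moved to 0.044 with no filter and 0.049 with DESeq2. The causes of these moves were not tested. BUB1, not called by edgeR, ran from -0.092 to 0.0020 over left-out libraries and changed sign without Control replicate 1. The members' median in PBX3_Cl KO against Control was above 0 without Control replicate 1 (0.0038) or PBX3_Cl KO replicate 2, and that of 2q, beside the settings above, without either Control library or PAX6_Ta KO replicate 2 (at most 0.028). No other result changed direction. With 2 libraries a group, the precision rests on the fit's shared spread.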
